A study of Mus musculus with 7 samples.

Results

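The chemokine system was described in inguinal white adipose tissue of the NOD/ShiLtJ strain, in which autoimmune diabetes develops. Members were the protein-coding genes whose symbol is a standard chemokine or chemokine receptor name (Ccl, Cxcl, Xcl, Cx3cl, Ccr, Cxcr, Cx3cr, Xcr or Ackr with a number). This gave 67 of the 55487 genes in the count table: 45 ligands, 18 signalling receptors and 4 atypical receptors. One further gene with such a name, Cxcl11, was annotated as a polymorphic pseudogene and was not a member. Inguinal fat is a subcutaneous depot of the groin that also contains a lymph node.

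The study measured gene expression by RNA sequencing in 7 libraries. Blood glucose of the mice lay between 190 and 230 mg/dL. Sham mice (3 libraries) were given KRBH buffer for 7 days. Mice of the imBAT group (4 libraries, named after their titles) were given 1.5 mg/kg of the proteins above 100 kDa from buffer conditioned by brown adipocytes, under the skin for 7 days. RNA was taken 2 to 8 weeks afterwards, a range given alike for every library, so the time of each is not known. All libraries share the NOD/ShiLtJ background. The labels give neither the age nor the sex of the mice and do not say whether each library is a separate mouse, so a p-value speaks of the spread among libraries, which may be technical. Replicate numbers only name a library.

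Chemokines are small secreted proteins that direct the movement of cells by binding seven-transmembrane receptors coupled to inhibitory G proteins. Homeostatic chemokines place lymphocytes and dendritic cells in lymphoid tissue, whereas inflammatory chemokines recruit monocytes, granulocytes and activated T cells. Atypical receptors bind chemokines without G-protein signalling and take up, transport or present them. In fat, macrophages, endothelium, progenitor cells and resident lymphocytes are all known sources or targets of chemokines.

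Sequencing depth was 41025786 to 44983250 counts in sham and 43360208 to 63650016 in imBAT. Levels are given in CPM, the counts relative to the library total after TMM scaling. The label of the tissue was checked against marker genes. All 10 white adipocyte markers were detected and higher in imBAT, with a summed level of 1898 to 4196 CPM in sham and 10410 to 26667 CPM in imBAT. Lymphocyte markers were lower in imBAT without exception: the 12 T cell markers summed to 1134 to 1414 CPM in sham and 188 to 592 CPM in imBAT, and the 10 B cell markers to 1892 to 2246 CPM and 297 to 804 CPM. Of 10 macrophage markers, 7 were called higher and none lower, with sums of 506 to 569 CPM and 588 to 1873 CPM. Among 9 markers of lymph node stroma and high venules, 7 were called lower and 1 higher. Their sums were 1115 to 1515 CPM in sham and 443 to 677 CPM in imBAT. Of the 8 mammary epithelium markers, all were called higher, with sums of 130 to 479 CPM and 915 to 1982 CPM. No marker on these lists was at 0 in every library. The part of these shifts, or of the amount of lymph node in each sample, in the results below was not tested. In bulk tissue, fewer cells of a type and less RNA per cell cannot be told apart.

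Of the 67 members, 49 had enough reads to be tested. With edgeR's quasi-likelihood test and Benjamini-Hochberg adjustment over all 26393 genes tested, 18 fell and 15 rose in imBAT (adjusted p under 0.05). Among all genes tested, 19.3% were called lower, 24.3% higher and 43.5% in either direction. The median log2 fold change of the tested members was -0.01, as was the median over all genes, and the range was -2.05 (Ccl22) to 3.39 (Ccl6). Levels of the groups did not overlap for 36 of the 49, against 52.0% of all genes tested. By role, the calls fell out as follows. Of 16 tested signalling receptors, 12 fell and none rose, with a median of -1.19. Of 29 tested ligands, 6 fell and 12 rose, with a median of 0.74. Of the 4 atypical receptors, 3 rose and none fell, with a median of 0.72. The summed level of the signalling receptors was 634 to 690 CPM in sham and 146 to 299 CPM in imBAT. Ligands summed to 805 to 875 CPM in sham and 834 to 1015 CPM in imBAT, so that their groups overlapped.

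**Figure D1:**
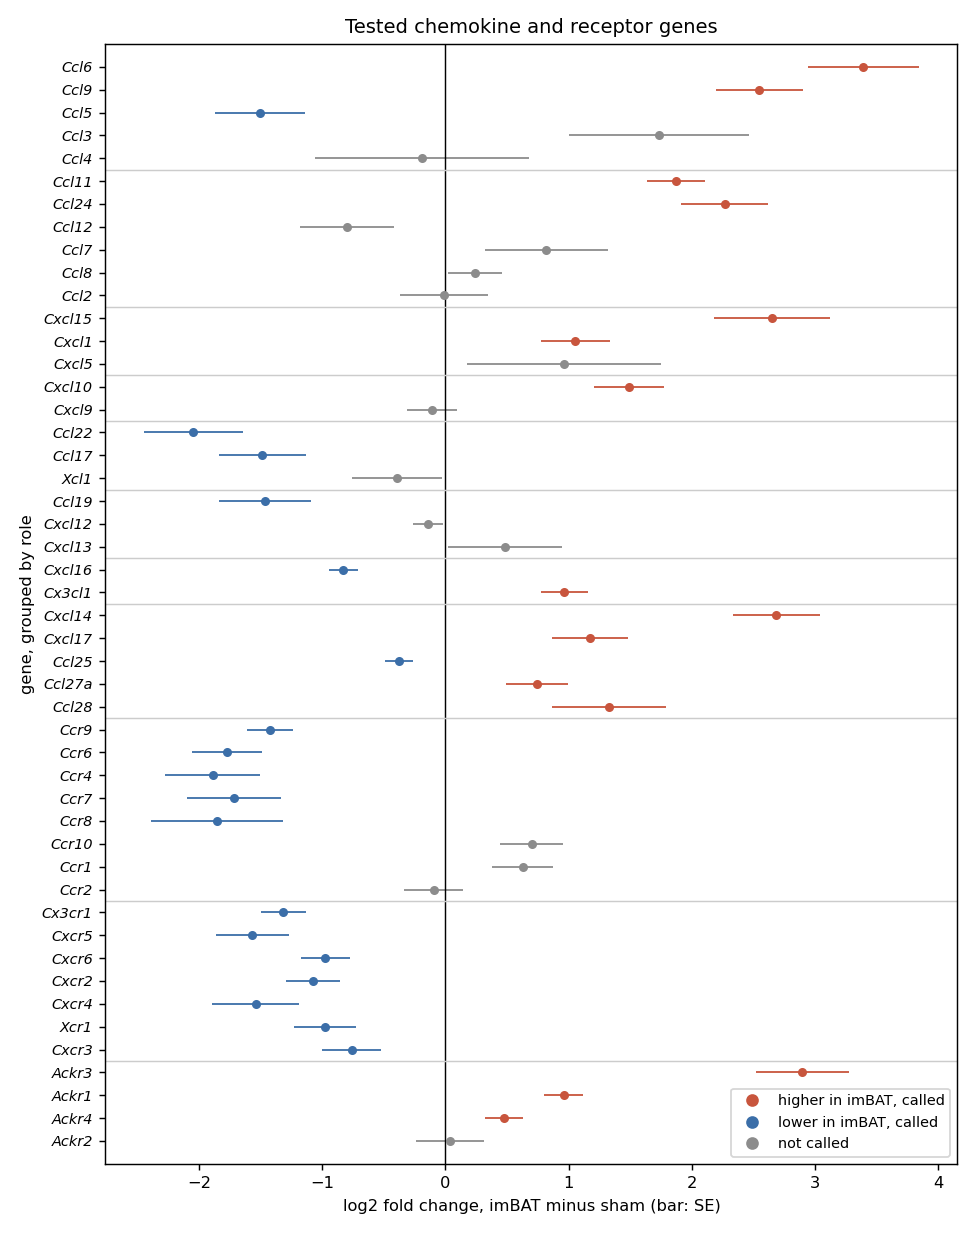
Log2 fold change (imBAT against sham, horizontal axis) with its standard error for the tested members reported here (vertical axis), grouped by role; filled colours mark adjusted p under 0.05. Called receptors lie to the left of 0 and called atypical receptors to the right, with ligands on both sides from -2.05 to 3.39.

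Promoters of 4 members that rose are shown as examples, each with at least 2 matches to the motifs searched. Ccl27a, which also rose, matched 2 of these motifs too and is not printed. Each is the 250 bases before the RefSeq start (GRCm38.p6), written 5′ to 3′ on the gene's strand, with motif matches in capitals. Positions are chr1:90203730-90203979 on the plus strand for Ackr3, and on the minus strand chr13:56296552-56296801 for Cxcl14, chr11:83578637-83578886 for Ccl9 and chr5:92348890-92349139 for Cxcl10. They were picked after their values and sequences had been seen.
Ackr3: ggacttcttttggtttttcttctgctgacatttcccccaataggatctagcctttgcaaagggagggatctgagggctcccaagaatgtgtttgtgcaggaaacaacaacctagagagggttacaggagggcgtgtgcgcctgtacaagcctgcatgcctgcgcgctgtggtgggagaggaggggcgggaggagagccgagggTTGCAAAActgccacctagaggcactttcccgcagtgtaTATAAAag
Cxcl14: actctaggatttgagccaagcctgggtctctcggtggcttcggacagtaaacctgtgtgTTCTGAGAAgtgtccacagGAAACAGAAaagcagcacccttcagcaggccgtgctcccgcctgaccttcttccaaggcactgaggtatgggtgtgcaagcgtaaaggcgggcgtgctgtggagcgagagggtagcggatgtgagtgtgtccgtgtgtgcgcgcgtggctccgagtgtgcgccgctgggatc
Ccl9: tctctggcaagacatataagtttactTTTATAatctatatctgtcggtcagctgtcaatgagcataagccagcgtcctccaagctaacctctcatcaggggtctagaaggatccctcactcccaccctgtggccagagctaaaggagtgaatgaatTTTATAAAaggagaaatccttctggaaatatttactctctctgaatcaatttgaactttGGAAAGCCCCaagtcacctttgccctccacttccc
Cxcl10: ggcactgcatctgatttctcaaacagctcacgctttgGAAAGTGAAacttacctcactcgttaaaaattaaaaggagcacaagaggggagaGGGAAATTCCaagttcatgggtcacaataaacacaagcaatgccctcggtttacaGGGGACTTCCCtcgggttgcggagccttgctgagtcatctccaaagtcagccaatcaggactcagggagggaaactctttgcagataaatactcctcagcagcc
The capitals mark TTGCNNAA (a C/EBP motif) and TATAAA in Ackr3, TTCNNNGAA (a STAT motif) and then GAAANNGAA (the core of an interferon response element) in Cxcl14, TATAAA on either strand, overlapping in the second stretch, and a kappaB motif in Ccl9, and GAAANNGAA and kappaB motifs, overlapping in the last stretch, in Cxcl10. Both strands were searched in windows of 250 bases before to 50 after the start. Windows were found for 46 of the 61 member symbols. A kappaB match was present in 8.46% of all 32851 windows, in 4 of 12 members that rose with a window (Ccl27a, Ccl9, Cxcl1 and Cxcl10), in 1 of 14 that fell and in 2 of 10 that were not called. TATAAA was present in 13.6% of all windows, and in 5, 3 and 4 members of these groups. TTGCNNAA was in 10.8% of all windows and in 2, 0 and 1 members. GAAANNGAA was in 8.56% of all windows and in 2, 1 and 3 members, and TTCNNNGAA in 8.30% and in 1, 2 and 0. A match is a description of letters, not a site of binding.

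Ligands of CCR1 and their relatives, which attract monocytes, macrophages and T cells, held the member with the highest fold change. Ccl6, a mouse macrophage chemokine that binds CCR1, was at 5.30, 3.11 and 4.17 CPM in sham replicates 1 to 3 and at 60.0, 17.2, 59.1 and 40.0 CPM in imBAT replicates 1 to 4. Each imBAT library was above each sham library, and imBAT replicate 2 was the lowest of its group. Ccl6 rose 10.5-fold (log2 3.39 ± 0.45, SE, adjusted p = 0.00145, edgeR). Ccl9, a related CCR1 ligand of macrophages and dendritic cells, was at 5.53, 5.22 and 4.70 CPM in sham and 35.9, 13.2, 39.6 and 31.9 CPM in imBAT. It rose 5.85-fold (log2 2.55 ± 0.35, SE, adjusted p = 0.00166, edgeR), again with imBAT replicate 2 the lowest. The same library had the lowest imBAT level of the macrophage marker Adgre1, with 20.3 CPM against 124.3 to 232.4 CPM in the others, and its part in these results was not tested.

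Ccl5, also known as RANTES and produced by cytotoxic and memory T cells and natural killer cells, went the other way. Its levels were 125.7, 146.3 and 125.0 CPM in sham and 39.2, 69.2, 18.9 and 59.2 CPM in imBAT. The groups did not overlap and imBAT replicate 3 was lowest, as it was for the T cell markers. Ccl5 fell 2.84-fold (log2 -1.50 ± 0.36, SE, adjusted p = 0.0114, edgeR), and without the expression filter its adjusted p was 0.0614. The macrophage inflammatory proteins Ccl3 and Ccl4 were scarce, at no more than 0.77 CPM in any library. Ccl3 had a log2 fold change of 1.74 ± 0.73 (SE, adjusted p = 0.0837) and Ccl4 of -0.19 ± 0.87 (SE, adjusted p = 0.874), and neither was called. Ccl3 was 2.35 without sham replicate 3 (adjusted p = 0.0845) and 2.10 without imBAT replicate 2, where it was called (adjusted p = 0.0122).

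Ligands of CCR2 and CCR3 recruit monocytes and eosinophils, and here the 2 called members were both eotaxins. Ccl11 (eotaxin-1), made by fibroblasts and other stromal cells, was at 9.22, 7.33 and 8.93 CPM in sham and 33.1, 19.9, 40.2 and 31.2 CPM in imBAT. Without overlap between the groups, it rose 3.66-fold (log2 1.87 ± 0.23, SE, adjusted p = 0.00119, edgeR). Of 10 adipose progenitor markers, 9 were called higher and none lower, with sums of 663 to 853 CPM in sham and 2580 to 4556 CPM in imBAT. Ccl24 (eotaxin-2), a product of macrophages, was at 1.08, 0.763 and 1.42 CPM in sham and 4.48, 3.37, 7.97 and 5.20 CPM in imBAT. It rose 4.81-fold (log2 2.27 ± 0.36, SE, adjusted p = 0.00227, edgeR). Their receptor Ccr3, the eosinophil receptor, had only 53 counts over all 7 libraries, 18 in sham and 35 in imBAT, and was not tested.

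The monocyte attractants of this group were not called. Ccl2 (MCP-1), the main ligand of CCR2, averaged 3.13 ± 1.64 CPM (SD, n = 3) in sham and 3.11 ± 0.69 CPM (SD, n = 4) in imBAT, with a log2 fold change of -0.01 ± 0.36 (SE, adjusted p = 0.981, edgeR). Ccl8 (MCP-2) was at 15.0, 12.3 and 9.63 CPM in sham and 18.9, 11.0, 13.8 and 14.5 CPM in imBAT, with overlapping groups and an adjusted p of 0.391. The log2 fold change of Ccl7 (MCP-3) was 0.82 ± 0.50 (SE, adjusted p = 0.210). For Ccl12 (MCP-5) every sham library was above every imBAT library, but its log2 fold change of -0.80 ± 0.38 did not pass (SE, adjusted p = 0.118). Ccl26 had 6 counts in all.

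Neutrophil-attracting CXCR2 ligands were measured at low levels apart from Cxcl15. Cxcl15, known as lungkine for its expression in lung epithelium, was at 6.83, 1.59 and 3.26 CPM in sham and 27.2, 33.1, 19.7 and 17.6 CPM in imBAT. Its groups did not overlap and sham replicate 1 was the highest of its group. Cxcl15 rose 6.28-fold (log2 2.65 ± 0.47, SE, adjusted p = 0.00355, edgeR), and by 3.33 on the log2 scale without sham replicate 1. Cxcl1 (KC), the classical neutrophil chemokine of the mouse, was at 0.928, 0.964 and 1.01 CPM in sham and 1.95, 1.29, 2.46 and 2.37 CPM in imBAT. It rose 2.08-fold (log2 1.05 ± 0.28, SE, adjusted p = 0.0158, edgeR), but leaving out sham replicate 2 or 3 ended the call (adjusted p up to 0.0552). Cxcl5 had 72 counts over all libraries and was not called. Cxcl2 and Cxcl3 were not tested, and imBAT replicate 3 held 22 of the 36 Cxcl2 counts and 14 of the 16 Cxcl3 counts.

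CXCR3 ligands are induced by interferons and draw activated T cells. Cxcl10 (IP-10) was at 4.40, 2.61 and 5.71 CPM in sham and 11.1, 11.1, 15.5 and 9.92 CPM in imBAT. All imBAT libraries lay above all sham libraries, and Cxcl10 rose 2.81-fold (log2 1.49 ± 0.28, SE, adjusted p = 0.00433, edgeR). Cxcl9 (MIG), its neighbour in the genome and a ligand of the same receptor, was at 18.4, 27.1 and 27.8 CPM in sham and 17.4, 28.9, 22.3 and 21.8 CPM in imBAT. These ranges overlapped throughout, and Cxcl9 was not called (log2 -0.11 ± 0.20, SE, adjusted p = 0.678, edgeR).

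Ligands of CCR4 attract regulatory and type 2 helper T cells, and both fell. Ccl22 (MDC), a product of mature dendritic cells, was at 96.3, 106.9 and 92.5 CPM in sham and 26.4, 30.9, 7.55 and 30.5 CPM in imBAT. The groups lay far apart, and imBAT replicate 3 was the lowest of all. Ccl22 fell 4.13-fold (log2 -2.05 ± 0.40, SE, adjusted p = 0.00496, edgeR), the largest fall among the tested members. Ccl17 (TARC), the other CCR4 ligand of dendritic cells, was at 1.61, 1.83 and 0.951 CPM in sham and 0.516, 0.589, 0.295 and 0.671 CPM in imBAT. It fell 2.81-fold (log2 -1.49 ± 0.35, SE, adjusted p = 0.0103, edgeR). Of 8 dendritic cell markers, 5 were called lower and none higher, with sums of 450 to 543 CPM in sham and 197 to 344 CPM in imBAT. Xcl1, the lymphotactin that binds XCR1, was at no more than 0.66 CPM and was not called, and Ccl1, the CCR8 ligand, had 47 counts and was not tested.

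Of 5 tested epithelial and barrier chemokines, 4 were called higher and 1 lower, beside 24.3% and 19.3% of all genes tested. Another 4 genes of this role were not tested. Cxcl14 (BRAK), which is made constitutively by epithelium and fibroblasts, was at 27.1, 10.6 and 34.0 CPM in sham and 143.8, 166.6, 166.4 and 137.4 CPM in imBAT. The sham libraries were spread widely, while the imBAT libraries lay close together, far above them. Cxcl14 rose 6.43-fold (log2 2.69 ± 0.35, SE, adjusted p = 0.00145, edgeR). Cxcl17, a chemokine of mucosal epithelium, was at 0.751, 0.462 and 0.660 CPM in sham and 1.53, 1.85, 1.11 and 1.13 CPM in imBAT. It rose 2.25-fold (log2 1.17 ± 0.31, SE, adjusted p = 0.0156, edgeR), with an adjusted p of 0.0648 without sham replicate 2.

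Ccl27a (CTACK) and Ccl28 (MEC), both ligands of CCR10 made by epithelia, rose at low levels. Ccl27a was at 1.17, 0.783 and 1.24 CPM in sham and 1.64, 2.09, 1.80 and 1.61 CPM in imBAT (log2 0.74 ± 0.25, SE, adjusted p = 0.0408, edgeR). Its groups did not overlap, but the call was lost without any 1 of the 7 libraries (adjusted p 0.0509 to 0.148). Ccl28 was at 0.177, 0.783 and 0.757 CPM in sham and 1.79, 1.06, 1.60 and 1.34 CPM in imBAT (log2 1.32 ± 0.46, SE, adjusted p = 0.0462, edgeR). Leaving out a library ended its call in 6 of 7 cases. Ccl25 (TECK), the ligand of CCR9 known from thymus and gut, was at 18.8, 21.3 and 19.9 CPM in sham and 14.1, 16.3, 16.4 and 14.8 CPM in imBAT. Against the rest of its group it fell, 1.30-fold (log2 -0.38 ± 0.11, SE, adjusted p = 0.0267, edgeR), and the call was lost without 4 of the 7 libraries in turn (adjusted p up to 0.110). Ccl20, the CCR6 ligand, had 8 counts in all.

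Lymphoid homing ligands guide lymphocytes and dendritic cells within lymph nodes, and 1 of 3 tested was called. Ccl19 (ELC), a CCR7 ligand of the T cell zone, was at 3.12, 3.45 and 2.37 CPM in sham and 0.959, 1.23, 0.467 and 1.65 CPM in imBAT. Without overlap of the groups, it fell 2.76-fold (log2 -1.46 ± 0.37, SE, adjusted p = 0.0138, edgeR), with an adjusted p of 0.0530 without sham replicate 2. Cxcl12 (SDF-1), the CXCR4 ligand made by stromal and endothelial cells, was at 314.2, 351.8 and 324.3 CPM in sham and 321.2, 298.0, 245.5 and 330.3 CPM in imBAT. The groups overlapped and it was not called (log2 -0.14 ± 0.12, SE, adjusted p = 0.369, edgeR), although upper-quartile scaling gave -0.38 with an adjusted p of 0.0396. Cxcl13 (BLC), the B cell attractant of follicles, was at 82.2, 86.9 and 48.1 CPM in sham and 166.5, 32.0, 103.6 and 102.7 CPM in imBAT. The imBAT libraries spanned both sides of the sham range, and Cxcl13 was not called (log2 0.48 ± 0.46, SE, adjusted p = 0.422, edgeR).

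The membrane-anchored chemokines, which can be shed by ADAM proteases, moved in opposite directions. Cxcl16, the CXCR6 ligand of macrophages and dendritic cells, was at 48.6, 60.8 and 56.5 CPM in sham and 35.3, 32.0, 27.1 and 30.3 CPM in imBAT, and fell 1.77-fold (log2 -0.83 ± 0.12, SE, adjusted p = 0.00188, edgeR). Cx3cl1 (fractalkine), carried by endothelium and epithelium, was at 24.4, 14.9 and 19.9 CPM in sham and 39.8, 38.1, 30.9 and 45.3 CPM in imBAT, and rose 1.95-fold (log2 0.97 ± 0.19, SE, adjusted p = 0.00485, edgeR). The groups overlapped for neither gene. Of the 8 blood endothelium markers, 7 were called higher and 1 lower, with sums of 657 to 748 CPM in sham and 906 to 1153 CPM in imBAT.

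**Figure D2:**
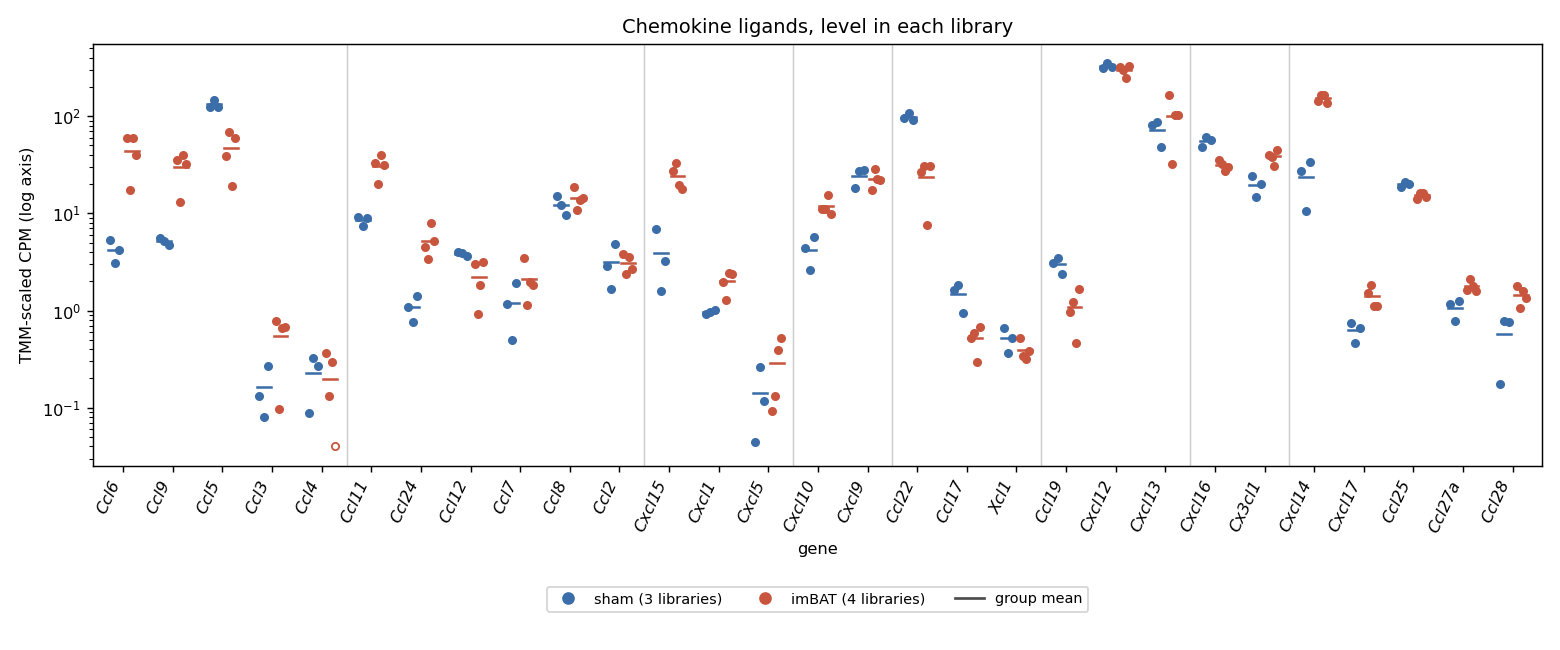
Level of each tested ligand in every library (vertical axis, TMM-scaled CPM on a log axis) by gene (horizontal axis, grouped by role); points are libraries, bars group means, and an open point marks a library with 0 counts. Ccl6, Ccl9, Ccl11, Cxcl15 and Cxcl14 show imBAT points above all sham points, and Ccl5, Ccl22, Ccl17 and Ccl19 the reverse.

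Among the CC receptors, 5 of 9 tested fell and none rose. Ccr7, which brings naive T cells and mature dendritic cells into lymph nodes, was at 133.2, 209.4 and 191.0 CPM in sham and 62.4, 66.6, 19.6 and 68.1 CPM in imBAT. The groups did not overlap, and imBAT replicate 3 stood below the other 3 imBAT libraries. Ccr7 fell 3.28-fold (log2 -1.71 ± 0.38, SE, adjusted p = 0.00828, edgeR). Ccr6, the CCL20 receptor of B cells and interleukin-17-producing T cells, was at 76.5, 72.5 and 73.1 CPM in sham and 25.2, 27.9, 10.3 and 23.2 CPM in imBAT. It fell 3.41-fold (log2 -1.77 ± 0.29, SE, adjusted p = 0.00255, edgeR), with the sham libraries close together.

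Ccr4, the receptor of CCL17 and CCL22 on regulatory and helper T cells, was at 7.51, 7.59 and 8.08 CPM in sham and 2.82, 2.80, 0.738 and 1.92 CPM in imBAT. Ccr4 thus fell together with both of its ligands, by 3.71-fold (log2 -1.89 ± 0.39, SE, adjusted p = 0.00575, edgeR). Ccr9, the gut- and thymus-homing receptor of CCL25, was at 26.6, 23.2 and 28.4 CPM in sham and 9.01, 12.7, 7.33 and 9.61 CPM in imBAT. It had the smallest p among the signalling receptors and fell 2.69-fold (log2 -1.43 ± 0.19, SE, adjusted p = 0.00134, edgeR). Ccr8, carried by regulatory T cells, was at 2.81, 6.85 and 2.62 CPM in sham and 0.995, 0.965, 0.418 and 2.16 CPM in imBAT. Ccr8 fell (log2 -1.85 ± 0.53, SE, adjusted p = 0.0226, edgeR), but without sham replicate 2 its log2 fold change was -1.26 with an adjusted p of 0.106. The call was also lost without imBAT replicate 1 or 2.

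The CC receptors that were not called, 4 in all, include those of monocytes, macrophages and mucosal plasma cells. Ccr2, which marks recruited monocytes, was at 23.3, 18.5 and 28.9 CPM in sham and 28.7, 14.7, 25.1 and 19.8 CPM in imBAT (log2 -0.10 ± 0.24, SE, adjusted p = 0.763, edgeR). The groups overlapped. Ccr1, the receptor of CCL6 and CCL9, averaged 1.23 ± 0.19 CPM (SD, n = 3) in sham and 1.90 ± 0.37 CPM (SD, n = 4) in imBAT (log2 0.63 ± 0.25, SE, adjusted p = 0.0697, edgeR). Ccr10, the receptor of CCL27 and CCL28, averaged 3.34 ± 1.03 CPM (SD, n = 3) and 5.42 ± 0.92 CPM (SD, n = 4), with every imBAT library above every sham library. Its log2 fold change of 0.70 ± 0.26 missed the threshold with edgeR (adjusted p = 0.0559) and passed it with DESeq2 (0.0312) and limma voom (0.0345).

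All 7 tested CXC, CX3C and XC receptors fell, and in none did the groups overlap. Among all genes tested, 19.3% were called lower and 52.0% had groups that did not overlap in either direction. Cxcr4, the CXCL12 receptor of most leukocytes, was at 201.2, 183.2 and 125.7 CPM in sham and 74.0, 47.8, 26.7 and 85.2 CPM in imBAT. It fell 2.91-fold (log2 -1.54 ± 0.36, SE, adjusted p = 0.00956, edgeR), with an adjusted p of 0.0518 when no expression filter was used. Cxcr5, the CXCL13 receptor of B cells and follicular helper T cells, was at 92.1, 86.0 and 76.7 CPM in sham and 34.1, 35.1, 13.2 and 32.1 CPM in imBAT. It fell 2.96-fold (log2 -1.57 ± 0.29, SE, adjusted p = 0.00427, edgeR), with imBAT replicate 3 again the lowest.

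Cx3cr1, the fractalkine receptor of monocytes, macrophages and cytotoxic lymphocytes, was at 23.6, 22.9 and 27.5 CPM in sham and 11.5, 10.9, 6.94 and 10.3 CPM in imBAT. It fell 2.49-fold (log2 -1.31 ± 0.18, SE, adjusted p = 0.00155, edgeR), the opposite direction to its ligand. Cxcr6, the CXCL16 receptor of resident T cells and natural killer T cells, was at 16.2, 16.0 and 16.2 CPM in sham and 9.55, 9.49, 5.44 and 8.37 CPM in imBAT, and fell 1.97-fold (log2 -0.98 ± 0.20, SE, adjusted p = 0.00563, edgeR). Cxcr2, the neutrophil receptor, was at 8.47, 12.5 and 12.9 CPM in sham and 4.92, 4.76, 4.70 and 7.12 CPM in imBAT, and fell 2.10-fold (log2 -1.07 ± 0.22, SE, adjusted p = 0.00578, edgeR). Of 7 tested neutrophil markers, 1 was called higher and none lower. All 8 on the list, with the untested Ly6g, summed to 8.60 to 9.73 CPM in sham and 6.93 to 51.2 CPM in imBAT.

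Of the remaining receptors, Xcr1, which marks cross-presenting dendritic cells, was at 14.8, 8.96 and 14.8 CPM in sham and 6.99, 8.24, 4.45 and 6.28 CPM in imBAT (log2 -0.98 ± 0.25, SE, adjusted p = 0.0140, edgeR). Leaving out sham replicate 3 gave an adjusted p of 0.0610. Cxcr3, the receptor of activated T cells for CXCL9 and CXCL10, was at 13.4, 13.4 and 13.2 CPM in sham and 8.83, 10.3, 4.80 and 7.38 CPM in imBAT (log2 -0.76 ± 0.24, SE, adjusted p = 0.0295, edgeR). It lost its call without any 1 sham library or without imBAT replicate 4 (adjusted p up to 0.0811). Cxcr1 had 31 counts in all and was not tested.

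Of the atypical receptors, 3 of 4 rose and the other was not called. Ackr3 (CXCR7), a scavenger of CXCL12 on endothelium and mesenchymal cells, was at 7.14, 4.08 and 8.13 CPM in sham and 46.3, 24.9, 69.9 and 51.2 CPM in imBAT. Each imBAT library held at least 3 times the level of any sham library. Ackr3 rose 7.45-fold (log2 2.90 ± 0.38, SE, adjusted p = 0.00140, edgeR), whereas CXCR4, the signalling receptor for the same ligand, fell and Cxcl12 itself was not called. Ackr1 (DARC), which carries chemokines across venular endothelium, was at 9.26, 9.22 and 7.05 CPM in sham and 17.8, 13.9, 16.7 and 17.7 CPM in imBAT, and rose 1.94-fold (log2 0.96 ± 0.16, SE, adjusted p = 0.00272, edgeR). Ackr4 (CCRL1), a scavenger of CCL19, CCL21 and CCL25, was at 10.1, 9.42 and 8.75 CPM in sham and 12.2, 14.1, 10.9 and 15.1 CPM in imBAT (log2 0.47 ± 0.16, SE, adjusted p = 0.0367, edgeR). Its call was lost without 6 of the 7 libraries in turn (adjusted p up to 0.133). Ackr2 (D6), a scavenger of inflammatory CC chemokines on lymphatic endothelium, was at 11.7, 9.10 and 7.96 CPM in sham and 12.2, 5.51, 9.99 and 11.7 CPM in imBAT, and was not called (log2 0.04 ± 0.28, SE, adjusted p = 0.924, edgeR).

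**Figure D3:**
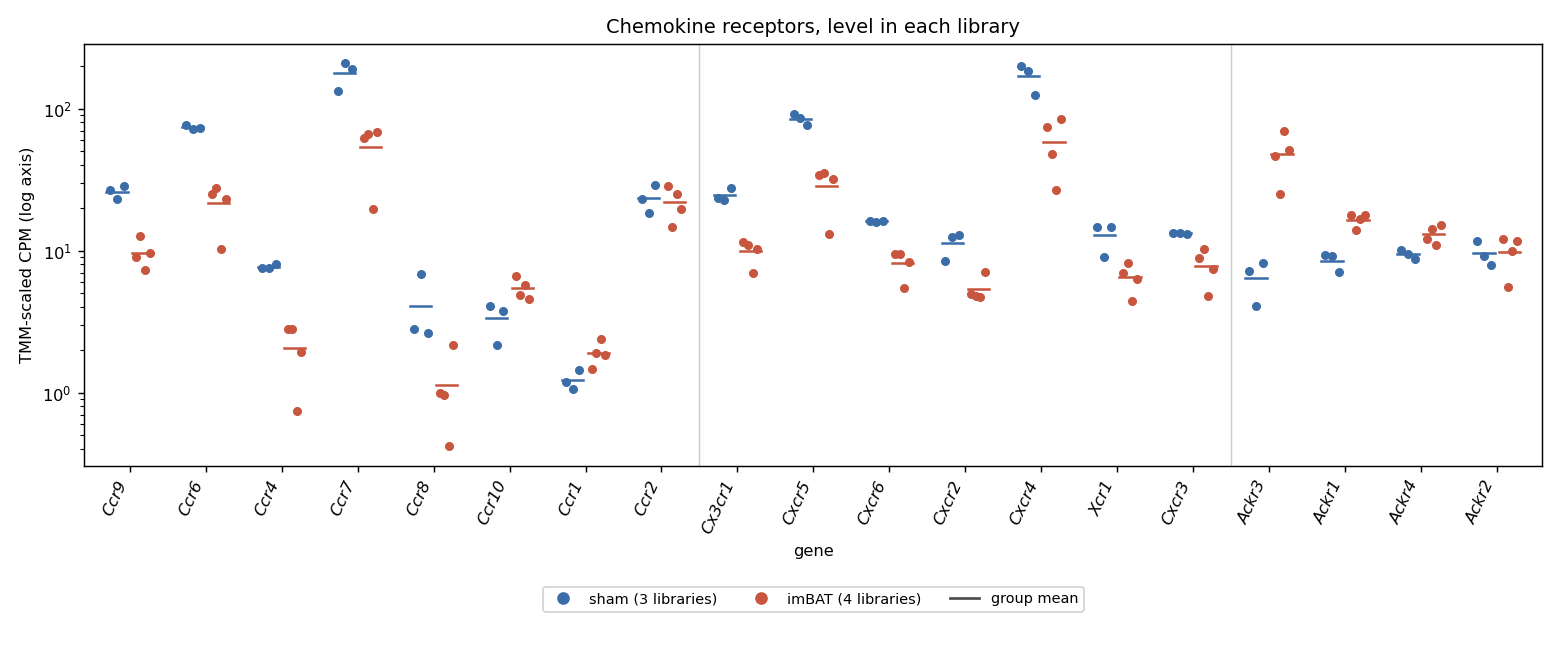
Level of the tested signalling and atypical receptors reported here in every library (vertical axis, TMM-scaled CPM on a log axis) by gene (horizontal axis); points are libraries and bars group means. The 12 receptors that fell have no sham point below an imBAT point, and Ackr3 shows the widest gap in the other direction.

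Because most signalling receptors are carried by leukocytes, their counts were also set against those of Ptprc (CD45), the pan-leukocyte phosphatase, within each library. Ptprc itself was at 1338, 1364 and 1475 CPM in sham and 496, 573, 248 and 519 CPM in imBAT (log2 -1.60 ± 0.25, SE, adjusted p = 0.00237, edgeR). Of 20 tested receptors, 12 were higher per 100 Ptprc counts in every imBAT library than in any sham library, 8 overlapped and none was lower throughout. Of the 26392 other genes tested, 80.1% were likewise higher per Ptprc count in every imBAT library and 0.299% lower. The ratios carry the fall of Ptprc itself and are a description, with no test. The overlapping receptors were Ccr4, Ccr6, Ccr7, Ccr8, Ccr9, Cxcr2, Cxcr4 and Cxcr5. Per 100 Ptprc counts, Ccr7 averaged 12.8 in sham and 11.3 in imBAT, Cxcr5 6.13 in both, and Cxcr4 12.3 and 12.6. Receptors that fell in CPM but were higher per Ptprc count were Cx3cr1 (1.27 times the sham ratio), Cxcr6 (1.59 times), Xcr1 (1.59 times) and Cxcr3 (1.81 times). The macrophage and monocyte receptors Ccr2 and Ccr1 were at 3.30 and 5.52 times the sham ratio. Ackr3, not known mainly as a leukocyte receptor, went from a mean of 0.461 to 12.9 per 100 Ptprc counts. Without imBAT replicate 3, which had the lowest Ptprc level and was left out after its values were seen, its imBAT mean was 7.86, and 12 receptors were again higher throughout and 8 overlapped.

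**Figure D4:**
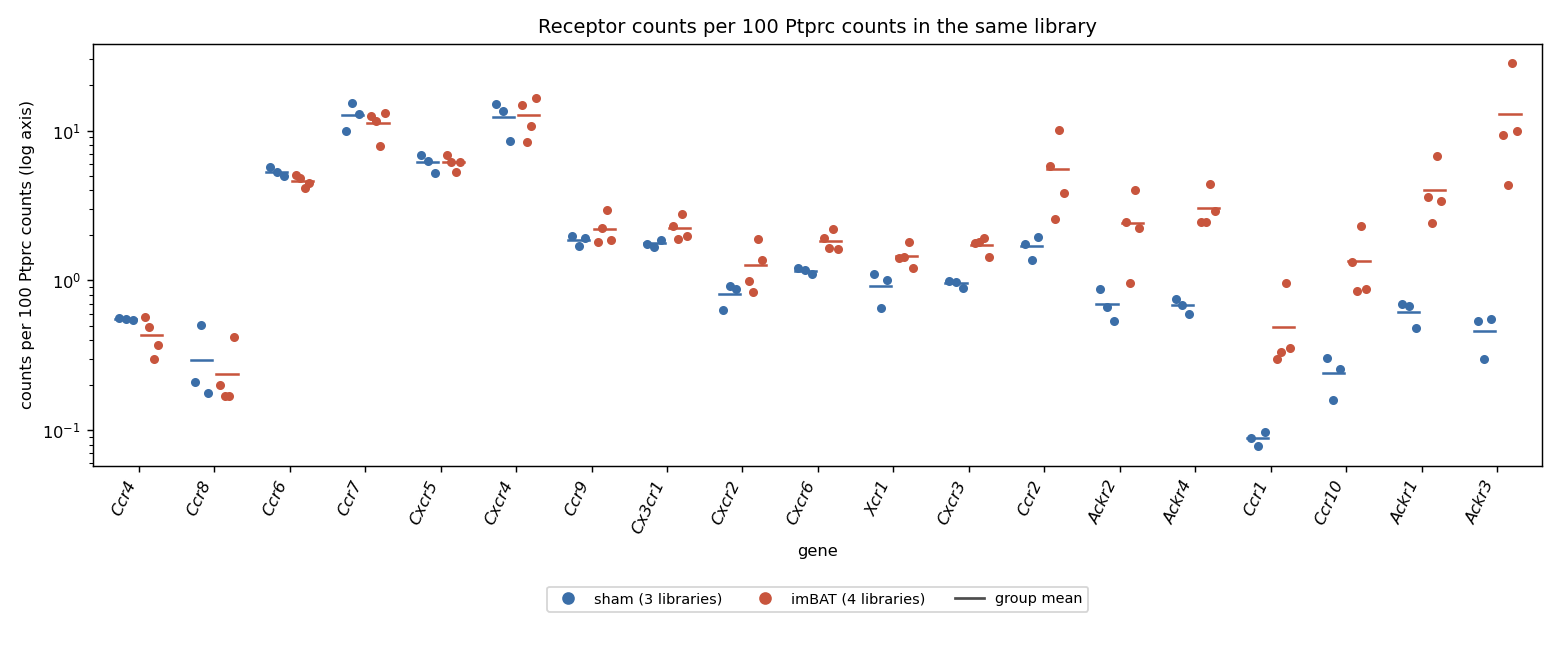
Receptor counts per 100 Ptprc counts in each library (log axis) for the tested receptors reported here; points are libraries. Ccr7, Cxcr5 and Cxcr4 overlap between the groups, and Ackr3 lies from 0.299 to 0.552 in sham and from 4.35 to 28.2 in imBAT.

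Levels of different genes were compared per kilobase of exon. In sham, the highest mean levels were those of Ccl5 (137.8 CPM per kb), Cxcr4 (94.0), Ccr7 (89.9), Cxcl13 (63.0), Ccl22 (42.4) and Cxcl12 (40.4). In imBAT the order was Cxcl13 (88.0 CPM per kb), Cxcl14 (84.1), Ccl5 (48.6), Cxcl12 (36.5), Cxcr4 (32.3) and Ccl11 (28.7). Cxcl14 stood at 13.1 and Ccl11 at 7.85 CPM per kb in sham.

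In a pair of the chemokine clusters, called genes of both directions lay side by side (GRCm38, Ensembl identifiers and GENCODE M21 coordinates). On chromosome 11, Ccl5 (chr11:83525778-83530518, minus strand) fell, and Ccl9 (chr11:83572919-83578636, minus strand) and Ccl6 (chr11:83587882-83593087, minus strand) beside it rose, while Ccl3 and Ccl4 further along were not called. In the other chromosome 11 cluster, of Ccl2, Ccl7, Ccl11, Ccl12 and Ccl8, only Ccl11 (chr11:82057823-82062955, plus strand) was called among these 5 tested genes. On chromosome 8, Ccl22 (chr8:94745590-94751699) and Ccl17 (chr8:94810453-94812036) fell, and Cx3cl1 (chr8:94772009-94782427), which lies between them on the same plus strand, rose. In the chromosome 9 receptor cluster, Ccr9, Cxcr6 and Xcr1 fell, and Ccr1 and Ccr2 were not called.

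**Figure D5:**
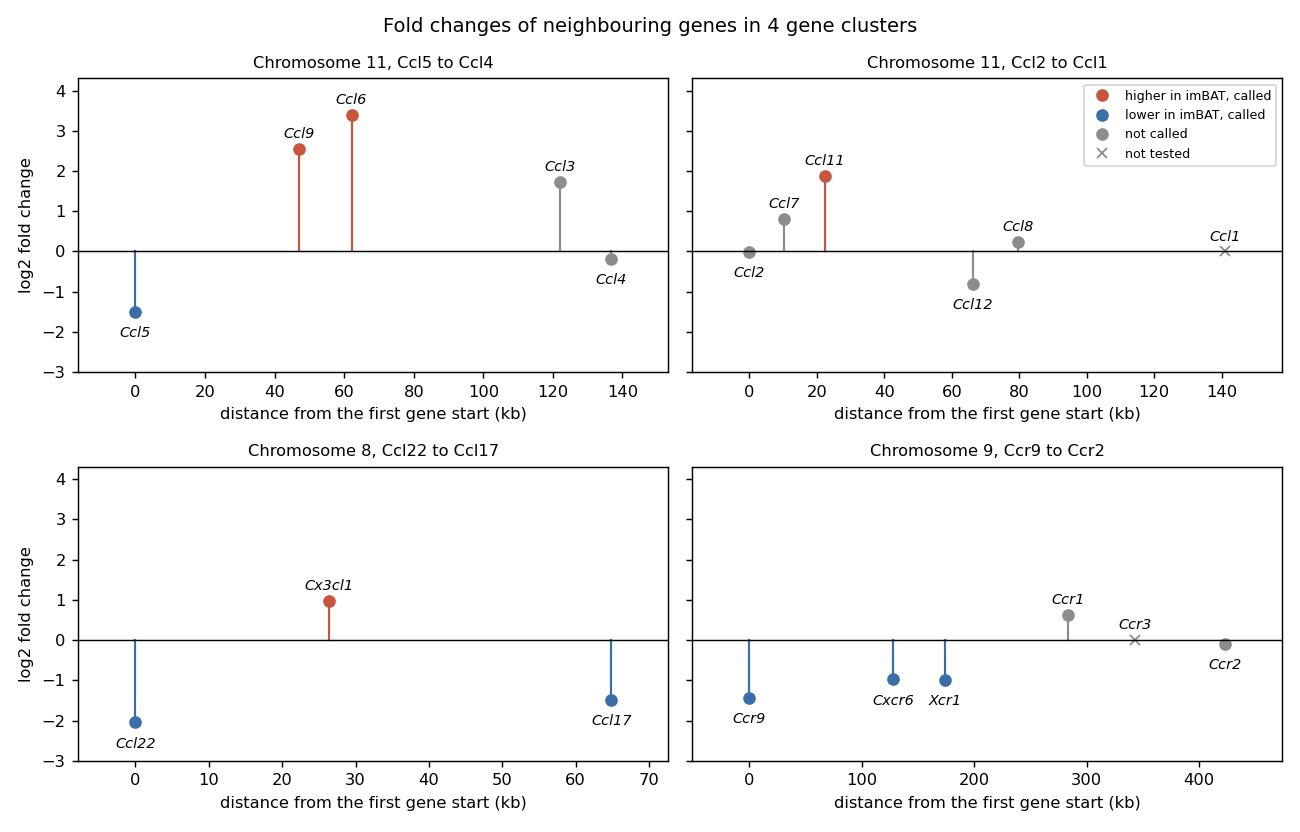
Log2 fold change (vertical axis) against distance from the first gene start in kb (horizontal axis) for members of 4 gene clusters; colours mark called genes, grey uncalled ones and crosses untested ones. Ccl9 (2.55) and Ccl6 (3.39) rise beside Ccl5 (-1.50), and Cx3cl1 (0.97) lies between Ccl22 (-2.05) and Ccl17 (-1.49).

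The 18 untested members had at most 53 counts over all libraries, and 4 had none. They include all 7 genes named Ccl21, the CCR7 ligands of lymphatic and high endothelial cells, which together held 51 counts, 27 in sham and 24 in imBAT. More than 1 gene identifier carried each of 4 symbols (Ccl19, Ccl21a, Ccl21b and Ccl27a). The share of 50-base transcript stretches found in another gene was 100.0% for Ccl21b, 97.1% for Ccl21d and 71.6% for Ccl21a. It was 98.1% for Ccl27b, 52.0% for Ccl19 and 45.0% for Ccl27a. Each share covers 1 identifier of its symbol. The other identifiers of these symbols, and Ccl21c, had no transcript sequence in the reference, so stretches shared with them are not counted. How the authors treated reads that match several places is not given in the sources used here, so the low Ccl21 counts and the levels of Ccl19 and Ccl27a are uncertain. Ackr1 shares 20.4% of its stretches, and 25.7% of its exonic bases lie in exons of Cadm3. Exons of genes on the opposite strand cover 18.3% of Cxcl16 (Zmynd15) and 18.7% of Xcl1 (Gm20743), and other genes cover 21.5% of Ccr9, and the strand setting of the counting is likewise not given.

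Genes that transmit or shape chemokine signals were taken as a list of 46, all of them tested. Of these, 21 were called lower, 13 higher and 12 not, beside 19.3% lower and 24.3% higher over all genes tested. Their median log2 fold change was -0.41, against -0.01 over all genes. Upper-quartile scaling gave 25 lower and 9 higher. Lower with the smallest p-values were Fgr, a Src-family kinase of myeloid cells (log2 -1.15), Gng2, a G-protein gamma subunit (-0.79), Dock2, the exchange factor for Rac in leukocytes (-1.34), and Was, an actin regulator of blood cells (-1.19). Their adjusted p-values with edgeR lay between 0.00145 and 0.00284. Higher with the smallest p-values were Plcb3, a phospholipase C (0.97), Pf4, the platelet chemokine CXCL4 (2.28), Rac1, the widely expressed Rac (0.54), and Tiam2, a Rac exchange factor (1.18), with adjusted p-values of 0.00214 to 0.00248. Pf4, a chemokine whose name does not follow the pattern of the members, averaged 3.49 CPM in sham and 16.9 CPM in imBAT.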

How the data were processed

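The authors deposited raw read counts per gene. Alignment was to the Ensembl primary assembly (release 101) by STAR 2.7.9a, per the labels' protocols. The submitters' processing notes further name Salmon 1.5.2, Subread, limma, edgeR and featureCounts 2.0.3, without their roles. Of 55774 rows, 287 identical repeats of an identifier were dropped. Groups came from the treatment label. Counts were tested with edgeR 4.0.16 in R 4.3.3 (robust quasi-likelihood F test, TMM scaling, expression filter with minimum count 10, group alone, 5 residual degrees of freedom), with Benjamini-Hochberg adjustment over 26393 genes and a threshold of 0.05. SE is the size of the log2 fold change divided by the square root of F. Levels are TMM-scaled CPM, and precision is limited by the 3 and 4 libraries. Exon lengths and coordinates came from GENCODE M21 (GRCm38), and promoters from RefSeq.

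Members and gene lists were chosen with earlier results of these data known. Values in every library are given for up to 4 called members of each role by smallest p, for called members against their role's majority, and for uncalled members with a mean of at least 5 CPM. Cxcr4, Xcr1, Cxcr3, Ccr8, Ccl28, Ptprc, Adgre1 and further uncalled members (Ccl2, Ccl3, Ccl4, Ccl7, Ccl12, Ccr1 and Ccr10) were described beyond that rule, after their values were seen. Of the signalling list, up to 4 genes by smallest p in each direction were named, and Pf4 is among them. One member stays in the counts and is not reported here by name. The fit was tested on simulated data. As alternatives, results were recomputed with upper-quartile or RLE scaling, without a filter, with 1 CPM required in 3 libraries, in DESeq2 1.42.0, in limma 3.58.1 (voom with quality weights), with a block for the number in the titles, with each library left out, and with a threshold of 0.10. Same-group libraries differed by more than sampling noise (chi-square per degree of freedom 22.5 to 241.2).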

Additional observations from a re-analysis of the deposited data

Results flagged for a closer look

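In 3 of the 35 members named by the rule, 1 imBAT library lay apart from the other 3, by a gap past the critical share of the group's range in Dixon's test. Chance flags about 1 in 20 groups examined, and 35 were examined. Ccr7 was lowest in imBAT replicate 3, at 19.6 CPM (gap 0.882 of the range), and Cxcr5 was lowest in the same library, at 13.2 CPM (gap 0.864). That library also had the lowest Ptprc level. Cxcr2 was highest in imBAT replicate 4, at 7.12 CPM (gap 0.907). The part of cell makeup in these values was not tested.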

How the results depend on the processing

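None of the 33 called members changed direction under any alternative, and 23 kept their call without each library in turn. Members called lower numbered 18 (14 to 20 over the alternatives) and members called higher 15 (10 to 18). Leaving out 1 library gave 8 to 12 higher genes on the signalling list, against 13; the lowest was without sham replicate 3. Direction turned only for uncalled members. Ackr2 was -0.20 with upper-quartile scaling and -0.082 to 0.24 with a library left out. Leaving out a library gave -0.25 to 0.0786 for Ccr2, -0.69 to 0.20 for Ccl4 and -0.32 to 0.47 for Ccl2. The cause was not tested. Upper-quartile scaling moved the median of all genes from -0.01 to -0.25 and gave Ccl12 an adjusted p of 0.0439 (log2 -1.04).

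The number opening each title is shared between groups, and its meaning is not stated. Deviations from the group means had correlations of -0.01, 0.10 and 0.11 in the 3 same-numbered pairs. Sham and imBAT libraries with different numbers gave -0.14 to 0.04. So few pairs cannot decide whether same-numbered libraries share more than a number. With the title number as a replicate block, imBAT replicate 2 forms a block of its own, since no other library shares its number. It then adds nothing to the difference between the groups. In this block fit, 17 members were lower and 15 higher. There, 7 calls changed (Ackr4, Ccl25, Ccl27a and Ccl28 lost, Ccr10, Ccl3 and Ccl7 gained). The signalling list gave 21 lower and 10 higher, and Ccr2 was 0.0627 and Ccl2 0.21. At these depths 18 members had at most 53 counts each and were not tested.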
